A study of Mus musculus with 6 samples.

Results

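Pi16 Scara5 fibroblasts of the mouse lung, the matrix-producing cells that carry the markers of the sheath around large vessels and airways, made up 411 of 2660 mesenchymal cells and 411 of 9994 cells kept in all. A mesenchymal cell here held 3 or more UMIs (molecule counts) of the collagen genes Col1a2 and Col3a1 together. It was counted as a Pi16 Scara5 fibroblast if at least 3 of 8 markers (Pi16, Scara5, Serpinf1, Ccl11, Entpd2, Gpc6, Ly6c1 and Clec3b) had a UMI and if 5 exclusion genes (Hhip, Slc7a10, Adam23, Aox3 and Ptprc) had none. The cells were thus chosen by measured UMIs of these 15 genes, the 8 markers, the 5 exclusion genes and the 2 collagens, whose levels are given as a description only. The other 2249 mesenchymal cells were the comparison.

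Adventitial fibroblasts lie in the connective tissue cuff that surrounds bronchi, arteries and veins, beside lymphatics, nerves and resident immune cells. They are known for secreting collagen, decorin and fibulins, for chemokines and cytokines that act on leukocytes, and for a Ly6a and Cd34 positive state that is often described as progenitor-like. Pi16 encodes a secreted peptidase inhibitor homologue, Scara5 a ferritin receptor, Serpinf1 the anti-angiogenic factor PEDF, Ccl11 the eosinophil chemokine eotaxin, and Clec3b the plasminogen-binding protein tetranectin. Col14a1, a collagen that sits on the surface of collagen fibrils, is used to tell these cells from the Col13a1 fibroblasts of the alveolar wall.

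The cells came from the lungs of SMA-GFP;Tbx4cre;RosaTdTomato mice. These mice report smooth muscle actin by GFP (SMA), and tdTomato (Tm) marks cells that descend from those with Cre driven by Tbx4, a gene of the lung mesenchyme, whether or not they still express it. Cells without Epcam, CD31 and CD45 were sorted into SMA+Tm+, SMA-Tm+ and SMA-Tm- fractions of normal lungs (day 0) and of lungs 21 days after bleomycin, which causes lung injury followed by scarring, with 1 sample for each of the 6 groups. All cells stand in a single table whose barcodes carry a suffix from 1 to 6, and no suffix could be tied to a labelled sample, so the table was read as 1 pooled sample. No comparison of days or fractions and no test was made, intervals cover counting error only, and nothing has a replicate check. The age of the mice was not given in these sources.

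In all, the deposited table held 35262820 UMIs in 10410 barcodes, and the 6 suffixes held between 2778071 and 12427810. Cells with Y-linked transcripts and cells with Xist fell on different suffixes: Xist had a UMI in 0 of 109 Pi16 Scara5 fibroblasts of suffix 1, which allows a share of cells with a UMI of up to 2.75% and does not limit the share of cells that express it, and in 274 of 282 of suffix 4. Of the genes Ddx3y, Uty, Kdm5d and Eif2s3y, at least 1 had a UMI in 43 of 109 and in 1 of 282 of them. Suffixes 1 and 4 thus differ in these sex-linked UMIs, and in depth as well. No barcode sequence was shared between Pi16 Scara5 fibroblasts of different suffixes, 55 sequences were shared between suffixes in the whole table, and a doublet caller marked 3 of the 411 cells.

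The 8 markers were each found in a part of the cells. Pi16 had a UMI in 57.4% of Pi16 Scara5 fibroblasts, in 9.34% of other mesenchymal cells and in 3.63% of 4211 leukocyte reference cells, which had Ptprc and no UMI of the 2 collagens. Scara5 had one in 53.5%, 7.29% and 0.0475% of the same cells. Median depths were 3523, 2912 and 3216 UMIs per cell, in that order. The leukocyte share is given as a reference and is not a measure of free RNA in droplets, as Pi16 has also been described in some T cells. Clec3b, at a higher level than Pi16 in both groups of mesenchymal cells, had a UMI in 0.855% of the leukocytes. The source of the Pi16 UMIs in leukocytes was not tested. Serpinf1 was found in 65.7% of Pi16 Scara5 fibroblasts, Ccl11 in 57.4%, Gpc6, a cell surface proteoglycan, in 47.0%, Ly6c1, a small membrane protein, in 45.3% and Entpd2, an enzyme that splits extracellular ATP, in 44.0%. Reads of Ly6c1 may be shared with its near copy Ly6c2, and Ly6c1 was also found in 6.29% of the leukocytes. Clec3b was found in 97.6% of Pi16 Scara5 fibroblasts but also in 60.9% of the other mesenchymal cells, so it separates the groups by level more than by presence.

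In level, Pi16 stood at 617 CPM (CPM being the UMIs of a gene scaled to a common total of all UMIs, with a 95% interval of 577 to 658) against 74.0 in other mesenchymal cells (68.0 to 80.3). Scara5 stood at 282 against 40.4 CPM, Serpinf1 at 434 against 87.4, Ccl11 at 432 against 79.0 and Clec3b at 2275 against 818. Per suffix, from 1 to 6, Pi16 read 926, 1480, 4829, 466, 1666 and 2373 CPM in Pi16 Scara5 fibroblasts and 109, 58.9, 40.9, 71.1, 22.8 and 10.8 CPM in the other mesenchymal cells. The groups do not overlap over the 6 suffixes, a direction that the choice of cells fixes, and the values of suffixes 2, 3, 5 and 6 rest on 9, 5, 4 and 2 cells. The Pi16 gene lies on chromosome 17 from 29317680 to 29330593 and Scara5 on chromosome 14 from 65666403 to 65764826 (GRCm38, GENCODE).

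The edge of the group was gradual. There were 111 cells with exactly 3 markers, just inside the rule, and 150 cells with 2 markers and no exclusion gene, just outside it. Inside, Pi16 read 156 CPM, Serpinf1 255 and Clec3b 1573, and outside 46.9, 97.2 and 872. The counts of cells with 3 to 8 markers were 111, 96, 92, 60, 30 and 22. The exclusion genes also removed many marker-positive cells: of 697 mesenchymal cells with 3 or more markers, 286 held an exclusion gene, and in 172 of those the exclusion genes had 1 UMI in all. Adam23 or Aox3 accounted for 206 of the 286 cells. These look-alike cells remain in the comparison group.

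The 411 cells spread over all suffixes with most in suffixes 1 and 4. They were 109 of 565 mesenchymal cells in suffix 1 (19.3%, 95% interval 16.1 to 22.8, Clopper-Pearson) and 282 of 1926 in suffix 4 (14.6%, 13.1 to 16.3). Suffixes 2, 3, 5 and 6 gave 17.3%, 12.2%, 9.76% and 5.71% of 52, 41, 41 and 35 mesenchymal cells. Over the whole table the share was 15.5% (14.1 to 16.9). With each cell thinned to 1000 UMIs the shares were 19.5% in suffix 1 (15.5 to 24.1) and 13.1% in suffix 4 (11.2 to 15.1), of 353 and 1179 cells that still passed as mesenchymal. Of the mesenchymal cells, 49 of suffix 1 and 0 of suffix 4 were shallower than 1000 UMIs, and the rest of the drop came from cells left with too few collagen UMIs. Median depth of Pi16 Scara5 fibroblasts was 1748 UMIs in suffix 1 and 3952 in suffix 4. The share read higher in suffix 1, and its cells were shallower. The pooled samples also passed through 3 sort gates, and the parts of depth and gate in these shares were not tested.

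**Figure D1:**
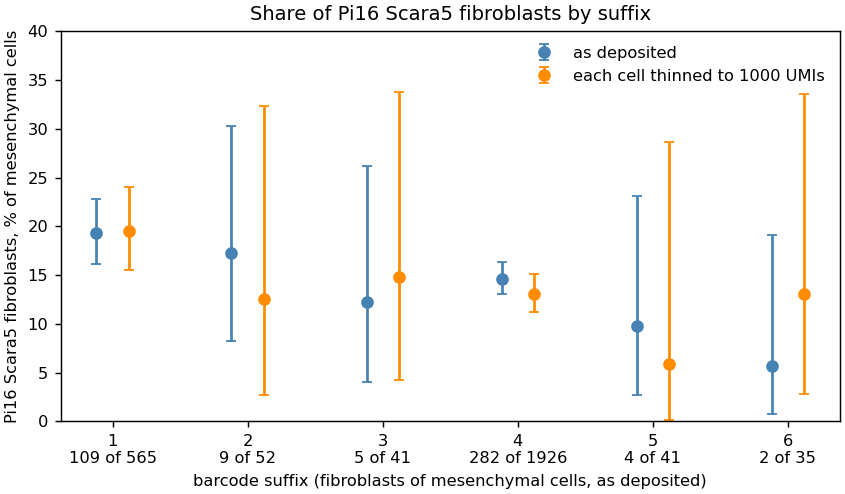
Pi16 Scara5 fibroblasts as a share of mesenchymal cells (y axis, percent) in each barcode suffix (x axis), as deposited (blue) and after thinning each cell to 1000 UMIs (orange), with exact 95% binomial intervals. Suffix 1 reads 19.3% and suffix 4 reads 14.6%, and the other 4 suffixes have wide intervals because they hold 35 to 52 mesenchymal cells.

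Against other mesenchymal cells, Pi16 Scara5 fibroblasts had higher levels of Ly6a, decorin (Dcn), Col14a1, Cxcl12, Il33 and the transcription factor Ebf1, and lower levels of contractile genes, nephronectin (Npnt), Col13a1 and Cxcl14. Genes used by the rule, Xist, Y-linked genes and mitochondrial genes were left out, and a gene was compared if it reached 50 CPM in either group. Of 3329 such genes, 94 were 2-fold or more higher (2.82%) and 171 were 2-fold or more lower (5.14%), and the median log2 ratio of all of them was -0.05. "Higher" and "lower" below mean past 2-fold unless a value is given. Within suffix 1 and within suffix 4 taken alone, 57 of the 94 and 122 of the 171 were again past 2-fold in the same direction. Without suffix 4, which held 282 of the 411 Pi16 Scara5 fibroblasts, 165 genes were higher and 300 lower, and in suffix 1 alone 193 and 287, on fewer UMIs. The comparison group contained the cells that carried Hhip, Slc7a10, Adam23 or Aox3, so these ratios also reflect the genes of those cells.

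Sfrp4, Ackr3 and Lsamp had the highest of the ratios that held in both large suffixes. Sfrp4, a secreted Wnt antagonist, read 83.3 CPM against 12.5, a log2 ratio of 2.74 (95% interval 2.34 to 3.14). In suffix 1 it read 125 against 18.2 CPM and in suffix 4 it read 70.4 against 10.9. It was found in 13.1% of Pi16 Scara5 fibroblasts, so most of the cells had no UMI of it, and the cell with most held 17.2% of its UMIs. Ackr3, a scavenging receptor for the chemokine Cxcl12, read 109 CPM against 17.4, a log2 ratio of 2.64 (2.30 to 2.98). Its level was 77.5 against 26.8 CPM in suffix 1 and 98.4 against 15.3 in suffix 4, so the ratio was larger in suffix 4. Lsamp, an adhesion protein of the IgLON family, read 60.1 CPM against 10.4, a log2 ratio of 2.53 (2.07 to 2.98).

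Ebf1, a transcription factor of B cells and of adipocyte and stromal precursors, read 400 CPM against 80.7, a log2 ratio of 2.31 (2.14 to 2.47). It was found in 57.4% of Pi16 Scara5 fibroblasts and in 13.1% of other mesenchymal cells, and read 469 against 105 CPM in suffix 1 and 370 against 69.7 in suffix 4. Twist2, a basic helix-loop-helix factor of mesenchyme, read 83.3 CPM against 18.4, a log2 ratio of 2.18 (1.82 to 2.54), which was 1.47 without suffix 4. Il33, an alarm cytokine that acts on innate lymphoid cells, read 139 CPM against 33.7, a log2 ratio of 2.05 (1.77 to 2.32), with 228 against 62.1 CPM in suffix 1 and 118 against 27.5 in suffix 4. Ly6a, the surface antigen Sca-1, read 1022 CPM against 280, a log2 ratio of 1.87 (1.77 to 1.96). Over suffixes 1 to 6, Ly6a read 1240, 797, 3348, 914, 3065 and 3651 CPM in Pi16 Scara5 fibroblasts and 341, 320, 287, 275, 38.1 and 216 in the others. Ly6a was chosen for its ratio in these same cells. The values of suffixes 2, 3, 5 and 6 rest on 9, 5, 4 and 2 Pi16 Scara5 fibroblasts.

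The remaining leading genes had ratios between 3.77-fold and 4.58-fold. They were Anpep (aminopeptidase N, 4.58-fold), Cyp1b1 (a cytochrome P450, 4.55-fold), Ifi205 (an interferon-inducible gene with near copies beside it, 4.38-fold), Gxylt2 (a xylosyltransferase that acts on Notch sugars, 4.04-fold), Cd248 (the stromal membrane protein endosialin, 3.90-fold), Fam46c (a poly(A) polymerase, 3.87-fold), Scara3 (a scavenger receptor family member, 3.83-fold) and Apod (apolipoprotein D, 3.77-fold). Apod differed between the suffixes in size, with 6.05-fold in suffix 1 and 2.86-fold in suffix 4. Without suffix 4 the log2 ratio of Apod was 2.76 against 1.91, and that of Anpep was 2.97. The Ebf1 gene lies on chromosome 11 from 44617317 to 45008091, Ackr3 on chromosome 1 from 90203980 to 90216751, and Il33 on chromosome 19 from 29925114 to 29960718.

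Lower genes included 9 of 11 compared markers of alveolar fibroblasts and 4 of 8 contractile genes. Tagln, an actin-binding protein of smooth muscle, read 16.4 CPM against 366, a log2 ratio of -4.48 (-5.12 to -3.90), and was found in 5.35% of Pi16 Scara5 fibroblasts and in 35.7% of the others. It read 12.9 against 341 CPM in suffix 1 and 17.8 against 388 in suffix 4. Rgs2, a brake on G protein signalling, read 23.9 against 369 CPM (15.5-fold lower). Npnt, a basement membrane ligand of integrins, read 60.1 CPM against 760, a log2 ratio of -3.66 (-3.98 to -3.36), with 30.1 against 379 in suffix 1 and 68.7 against 812 in suffix 4. Col13a1, the transmembrane collagen that names the alveolar fibroblasts, read 13.0 CPM against 158 (12.2-fold lower). Scube2, a secreted protein of hedgehog release, had 2 UMIs in all Pi16 Scara5 fibroblasts, both in the same cell, against 480 UMIs in the others, a log2 ratio with an interval of -8.57 to -3.66. Without suffix 4 the log2 ratio of Npnt was -4.49. Scube2 then had under 3 UMIs in Pi16 Scara5 fibroblasts and was set to 3, so its value of -2.56 is a bound.

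Other leading lower genes were Efnb2 (the ephrin-B2 ligand, 25.1-fold), P2ry14 (a receptor for UDP-glucose, 17.6-fold), Car2 (carbonic anhydrase 2, 16.0-fold), Mapt (the microtubule protein tau, 13.2-fold) and Scn3a (a sodium channel, 12.6-fold). Further lower genes were Nebl (nebulette, 9.78-fold), Adgrg6 (an adhesion G protein-coupled receptor, 9.25-fold), Colq (the collagen tail of acetylcholinesterase, 8.22-fold) and Tnfrsf19 (a TNF receptor family member, 7.93-fold). Efnb2 rested on 4 UMIs in Pi16 Scara5 fibroblasts, all in suffix 4, and Mapt on 8, so their folds are loosely bounded, with log2 intervals of -6.53 to -3.29 and -4.95 to -2.74. Without suffix 4, Efnb2, P2ry14, Car2, Mapt and Colq each had under 3 UMIs in Pi16 Scara5 fibroblasts and were set to 3. Their log2 values of -3.83, -3.54, -2.92, -2.76 and -1.92 are thus bounds, and the ratios may be lower. They cannot show whether the ratios of -4.65, -4.14, -4.00, -3.73 and -3.04 in the whole table depend on suffix 4. Without suffix 1 the log2 ratio of Efnb2 was -3.93.

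**Figure D2:**
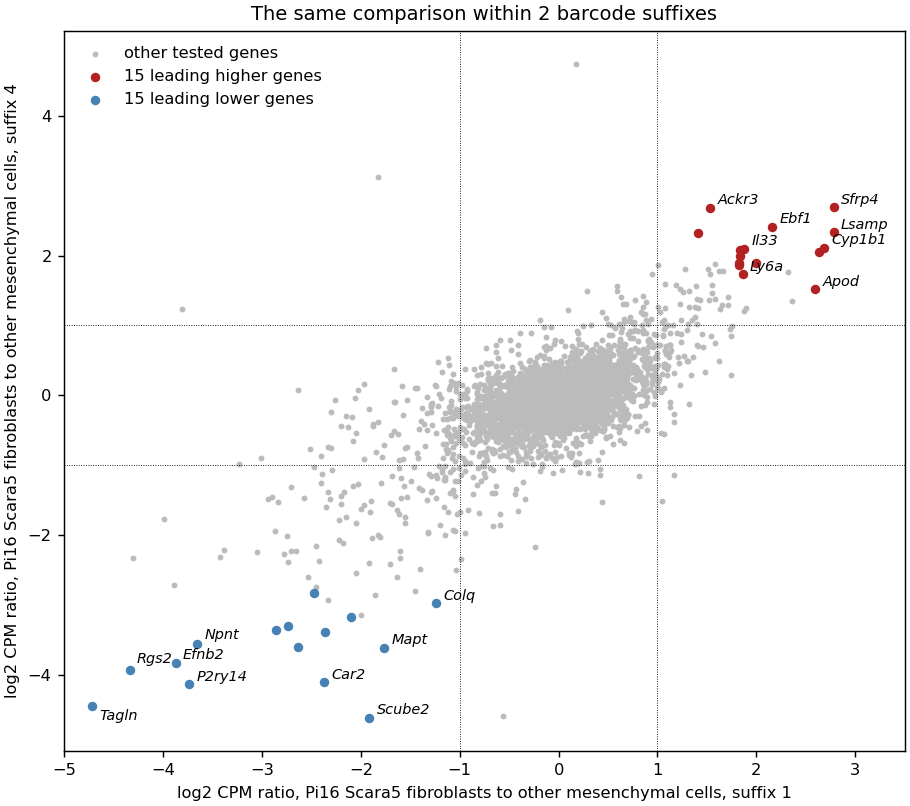
Log2 ratio of CPM between Pi16 Scara5 fibroblasts and other mesenchymal cells for each compared gene within suffix 1 (x axis) and within suffix 4 (y axis), with dotted lines at 2-fold. The 15 leading higher genes (red) and 15 leading lower genes (blue) lie past 2-fold in both suffixes, which is how they were chosen.

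Genes that mark adventitial fibroblasts in general stood together. Of 25 genes on that list 19 were compared, and 12 were higher and 0 lower, with a median log2 ratio of 1.36 beside -0.05 for all compared genes. Against only the cells with Adam23 or Aox3, a class taken up below, the list median was 0.31, with 2 higher and 0 lower. The list was written with earlier results of these data known and so is no independent evidence of its own direction. Dcn, the collagen-binding proteoglycan decorin, read 5693 CPM against 1738 (3.28-fold), Col14a1 read 632 against 187 (3.39-fold), Emilin2 51.2 against 14.2 (3.61-fold) and Cd34 494 against 193 (2.57-fold). Dpt (dermatopontin) at 1026 against 695 CPM and Pcolce2, an enhancer of procollagen cleavage, at 1103 against 1080 lay within 2-fold. Sema3c, a guidance cue, was the member with a ratio under 1, at 86.7 against 94.9 CPM.

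Among matrix genes, single members stood apart rather than whole families. For 10 compared fibrillar and associated collagens the median was -0.12, with 1 higher (Col14a1) and 1 lower (Col13a1), while the main chain Col1a1 read 1508 against 1008 CPM and Col6a3 158 against 301. Of 18 elastic fibre and microfibril genes, 3 were higher and 0 lower at a median of 0.05. The 3 were Emilin2, Fbln2 at 122 against 41.2 CPM and Fbln1 at 713 against 272, the last 2 being fibulins that tie elastic fibres to basement membranes. Elastin itself (Eln) read 912 against 1106 CPM. The elastic fibre list had 0 higher and 0 lower against only the cells with Adam23 or Aox3, at a median of 0.07. Of 13 basement membrane genes, Col15a1, a collagen at the outer face of basement membranes, was higher at 91.5 against 32.6 CPM, Npnt was lower, and the median was -0.16. Of 8 small leucine-rich proteoglycans, Dcn was higher, Aspn (asporin) at 64.2 against 313 CPM and Prelp at 263 against 624 were lower, and the median was 0.08.

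Of 18 matrix glycoproteins, 3 were higher and 3 lower at a median of 0.19. Fndc1 read 198 against 83.7 CPM, the basement membrane protein Smoc2 135 against 58.6 and Tgfbi 218 against 104, while Thbs1 (thrombospondin 1, an activator of latent TGF-beta) read 93.5 against 490, Spon1 92.2 against 283 and Spp1 (osteopontin) 21.2 against 63.3. The Spp1 ratio is not firm, since a single cell held 54.8% of its UMIs in Pi16 Scara5 fibroblasts. Within suffix 1 Spp1 had 1 UMI in these cells, set to 3, so the log2 ratio of 0.43 is a bound. Of 21 matrix proteases and their inhibitors, 6 were higher and 1 lower at a median of 0.65. Mmp3 (stromelysin 1) read 632 against 195 CPM, the serine protease Htra3 421 against 146 and the aggrecanase Adamts5 238 against 90.5. Timp1, the secreted inhibitor, read 205 against 85.0 CPM with 20.3% of its UMIs in 1 cell. The lower gene was Serpine2 (protease nexin 1), at 37.6 against 255 CPM, a log2 ratio of -2.77 that was -1.52 without suffix 4. Against only the cells with Adam23 or Aox3, the protease list had 0 higher and 1 lower at a median of 0.19. The glycoprotein list had 0 higher and 1 lower at a median of 0.20 there.

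In the whole table complement genes stood above the median of all genes, and none passed 2-fold. Of 8 compared members 7 lay between 0.32 and 0.74 in log2 ratio, with a list median of 0.60, which was 1.03 within suffix 1 and 0.54 within suffix 4. Against the cells with Adam23 or Aox3 alone the list median was 0.07. Serping1, the C1 inhibitor, read 1455 against 872 CPM, C1s1 401 against 251 and C3 711 against 451, while C7 read 70.3 against 70.2. The C7 value joins opposite directions, 336 against 251 CPM in suffix 1 and 18.7 against 38.7 in suffix 4 (log2 ratios of 0.42 and -1.05). Of 7 chemokines, 2 were higher and 1 lower at a median of 0.35, which was -0.25 within suffix 1. Cxcl12, which holds leukocytes and progenitors in place, read 1151 against 416 CPM (2.77-fold) and Cxcl14 read 112 against 843 (7.53-fold lower). Ccl2, the monocyte chemokine, read 112 against 15.9 CPM, but 1 cell held 86.6% of these UMIs, and without that cell the log2 ratio was -0.08. Without suffix 4 the log2 ratio was 6.001, on 142 UMIs of suffix 6 and 1 of suffix 5, so it rests on the same cell. Of 8 niche cytokines and receptors, Il33 was higher and Kitl (stem cell factor) was lower at 21.9 against 61.3 CPM, a log2 ratio of -1.49. Without suffix 4 the value for Kitl was -3.00, a bound on 2 UMIs set to 3. The list median was 0.33, with Il1r1 at 101 against 57.0.

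Of 18 mesenchymal transcription factors, 5 were higher and 6 lower at a median of 0.04. The higher ones were Ebf1, Twist2, Klf4 at 361 against 162 CPM, Creb5 at 74.4 against 33.6 and Prrx1, a homeobox factor of limb and connective tissue, at 263 against 126. The lower ones were factors of lung mesenchyme: Tbx2 at 56.7 against 191 CPM, Tbx4 at 19.8 against 61.7, Tbx5 at 31.4 against 69.7, Foxf1 at 28.7 against 58.5, Foxf2 at 21.9 against 67.2 and Tcf21 at 151 against 332. For Tcf21, which marks lipofibroblasts and alveolar fibroblasts, the log2 ratio was -0.36 in suffix 1 and -1.24 in suffix 4. That of Tbx4 was -0.80, within 2-fold, without suffix 4. Against only the cells with Adam23 or Aox3, the list median was -0.04, with Creb5 higher and Foxf1 lower. The other factors named here lay within 2-fold of that class. Tbx4 is also the gene whose Cre gave the tdTomato lineage label.

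Signalling lists were mixed. Of 8 Wnt ligands, R-spondins and antagonists, Sfrp4 was higher, the ligand Wnt2 (3.41 against 56.8 CPM, 5 UMIs) and the target Axin2 (25.9 against 52.2) were lower, and the median was -0.03. Of 11 BMP and TGF-beta genes, Gdf10 was higher at 154 against 69.7 CPM, 2 were lower, among them the ligand Bmp5 (73.7 against 236), and the median was 0.04. Without suffix 4 the log2 ratios of Wnt2, Axin2 and Bmp5 were -1.82, -0.86 and -2.40, against -4.06, -1.01 and -1.68. Of 9 genes of the IGF axis, the binding protein Igfbp4 was higher at 3284 against 1110 CPM, Igfbp3 was lower at 206 against 801 (a log2 ratio of -1.96, or -3.12 without suffix 4), and the median was 0.19. Of 10 guidance genes, Ntn1 (netrin 1) was higher at 147 against 62.1 CPM, the receptors Nrp2 (56.0 against 118) and Robo2 (32.1 against 75.1) were lower, and the median was 0.03. None of 11 growth factors and receptors (median -0.02) and none of 5 hedgehog genes (median 0.23) passed 2-fold. The growth factor receptor Pdgfra read 397 against 558 CPM and Fgfr1 268 against 164, and the hedgehog co-receptor Cdon read 55.3 against 35.3, a log2 ratio of 0.65 that was 0.06 without suffix 4.

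Metabolic lists were also divided. Of 13 antioxidant and xenobiotic enzymes, Cygb (cytoglobin) at 1041 against 393 CPM and Cyp1b1 were higher, Gpx3 (extracellular glutathione peroxidase) at 791 against 1922, Prdx6 at 124 against 258 and the esterase Ces1d at 16.4 against 111 were lower, and the median was -0.42, or 0.03 within suffix 1. Of 7 retinoid genes, Aldh1a2, which makes retinoic acid, was higher at 65.6 against 31.2 CPM and Aldh1a1 was lower at 109 against 279, with a median of 0.31. For some of these genes the call did not hold without suffix 4, where the log2 ratio was -0.84 for Gpx3, -0.92 for Aldh1a1 and 0.25 for Aldh1a2, and that of Aldh1a2 was 0.996 without suffix 1. Of 7 lipid and adipocyte progenitor genes Apod was higher and none lower (median 0.37), and Lpl (lipoprotein lipase) read 157 against 118 CPM.

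Of 8 contractile genes, 4 were lower and 0 higher at a median of -0.94, the lowest median of the 23 lists. Besides Tagln these were Acta2 (smooth muscle actin, 32.8 against 150 CPM), Des (desmin, 29.4 against 92.7) and Mylk (myosin light chain kinase, 227 against 589). Without suffix 4 the log2 ratio of Acta2 was -1.57 against -2.19, that of Des -3.13 against -1.66. The contractile list had 0 higher and 1 lower against only the cells with Adam23 or Aox3, at a median of -0.30. Interferon response and antigen presentation genes had a median of -0.08 over 8 genes with none past 2-fold, for example B2m at 2152 against 1919 CPM. Immediate early genes, which respond to tissue dissociation, had a median of 0.14 over 15 genes. Fosb read 266 against 150 CPM, Dusp1 1310 against 894, and Ier3 was lower at 41.0 against 84.9, a log2 ratio of -1.05 that was -1.76 without suffix 4.

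**Figure D3:**
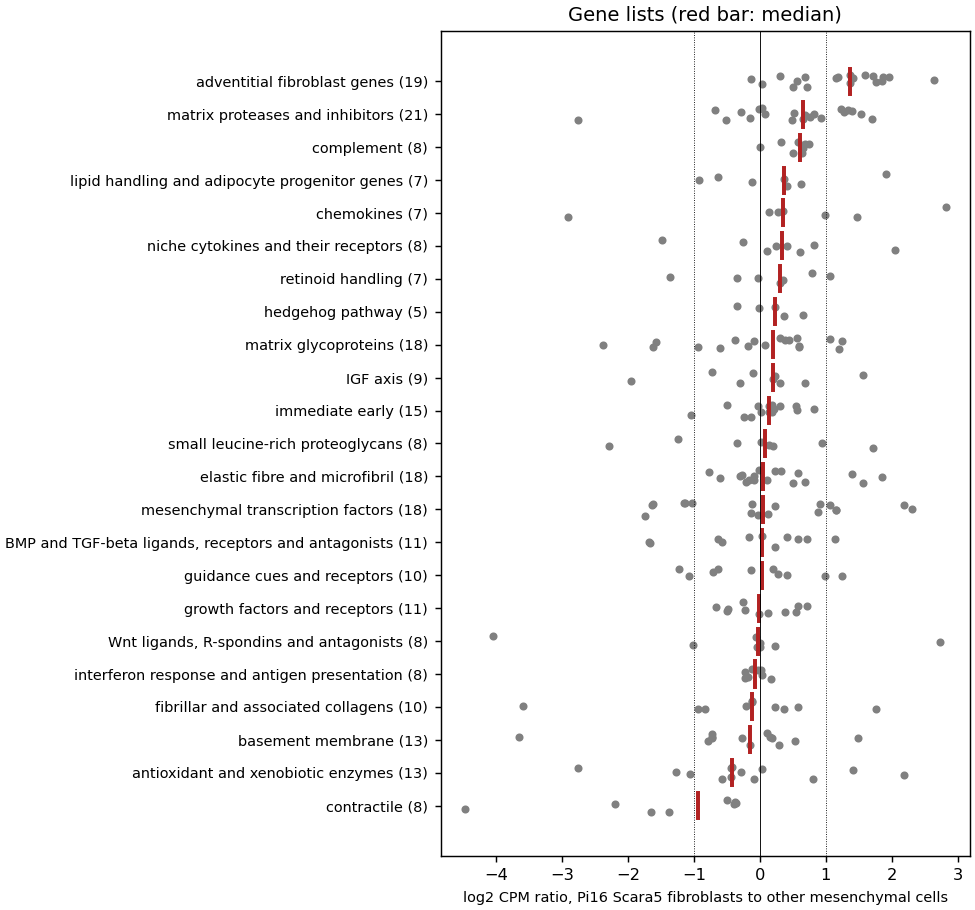
Log2 ratio of CPM between Pi16 Scara5 fibroblasts and other mesenchymal cells (x axis) for each compared gene (grey points, shifted at random along y) of 23 lists (y axis, number of compared genes in brackets), with the list median in red and dotted lines at 2-fold. The adventitial list has the highest median, 1.36, and the contractile list the lowest, -0.94.

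Set against 3 classes of mesenchymal cell marked by exclusion genes, the Pi16 Scara5 fibroblasts differed in the fewest genes from the Adam23 or Aox3 class. Against the 641 cells with Hhip, a hedgehog-interacting protein of ductal myofibroblasts, 210 of 3395 genes were higher (6.19%) and 202 lower (5.95%). Against the 323 cells with Slc7a10, an amino acid transporter found here in Npnt and Col13a1 rich cells, 364 of 3672 were higher (9.91%) and 517 lower (14.1%). Against the 269 cells with Adam23 or Aox3, only 13 of 3168 were higher (0.410%) and 41 lower (1.29%). Median depths were 2636, 2856 and 4228 UMIs per cell in these classes. Of the Adam23 or Aox3 cells, 168 had 3 or more of the 8 markers, against 55 of the Hhip cells and 6 of the Slc7a10 cells.

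Among the genes higher than in the Adam23 or Aox3 class, Jchain, Saa3, Cxcl13, Ccl2 and Smpd3 were higher by way of single cells, which held 99.8%, 100%, 98.3%, 86.6% and 59.6% of their UMIs in Pi16 Scara5 fibroblasts. Genes spread over many cells that were higher were Sfrp4 (83.3 against 32.6 CPM), Ackr3 (109 against 42.7), Creb5 (74.4 against 31.8), Aspn (64.2 against 29.3), Gxylt2 (110 against 52.7), Fam46a (62.8 against 30.1) and the proteoglycan Lum (290 against 143). The remaining higher gene, Ccl6, had 44.4% of its UMIs in 1 cell. The 41 lower genes included Lgals2 (2.05 against 72.0 CPM, on 3 UMIs), Upk3b at 13.7 against 126, Gpm6a at 8.88 against 91.2 and the water channel Aqp1 at 42.3 against 177. Upk3b was the 1 gene of 10 mesothelial markers past 2-fold. Only 3 of the 10 had been compared against all other mesenchymal cells. Summed, the 10 markers read 180 CPM against 508 in the Adam23 or Aox3 class. Of the 12 alveolar fibroblast markers 5 were lower, among them Npnt (60.1 against 179), Cxcl14 (112 against 469) and Limch1 (278 against 714). Against the 168 cells of that class with 3 or more markers, 13 of 3137 genes were higher (0.414%) and 16 lower (0.510%), and the log2 ratio of Npnt was 0.15 and that of Col13a1 -0.37. In that comparison 8 of the 13 higher genes named above were past 2-fold again. Of these, Jchain, Saa3, Cxcl13, Ccl2 and Smpd3 were the genes carried by single cells. Fam46a (1.02), Aspn (1.39) and Ackr3 (1.01) were the ones spread over many cells. Sfrp4 (0.77), Gxylt2 (0.80), Creb5 (0.68), Lum (0.67) and Ccl6 (0.93) lay within 2-fold.

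Ly6a, Dcn, Cxcl12 and Cd248, which were high against all other mesenchymal cells together, were within 2-fold of the Adam23 or Aox3 class. Ly6a read 1022 against 827 CPM, Dcn 5693 against 4246, Cxcl12 1151 against 967 and Cd248 111 against 94.6. Ebf1, Il33 and Col14a1 also lay within 2-fold of that class. Of 3329 compared genes, only 8 were 2-fold higher than each of the 3 classes, and in 5 of these 1 cell held over 25% of the UMIs. The other 3 were Sfrp4, Ackr3 and Gxylt2, of which Sfrp4 and Gxylt2 were within 2-fold of the Adam23 or Aox3 cells with 3 or more markers. In the Hhip class they read 11.4, 17.9 and 25.0 CPM and in the Slc7a10 class 3.07, 1.02 and 1.02. In the other direction, 29 of the 3329 were 2-fold lower than in each class. Among them Tagln read 16.4 CPM against 876, 390 and 56.1 in the Hhip, Slc7a10 and Adam23 or Aox3 classes. Others were Npnt, Thbs1, Serpine2, Cxcl14, Rgs2, the integrin chain Itga8 and the transcription factor Gata5. Against the Adam23 or Aox3 cells with 3 or more markers, Cxcl14 (-1.07) and Gata5 (-1.48) stayed past 2-fold in log2 ratio. Tagln (-0.92), Npnt (0.15), Thbs1 (-0.99), Serpine2 (-0.18), Rgs2 (-0.43) and Itga8 (-0.24) lay within it. No test compares these classes, since all come from 1 pooled table.

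**Figure D4:**
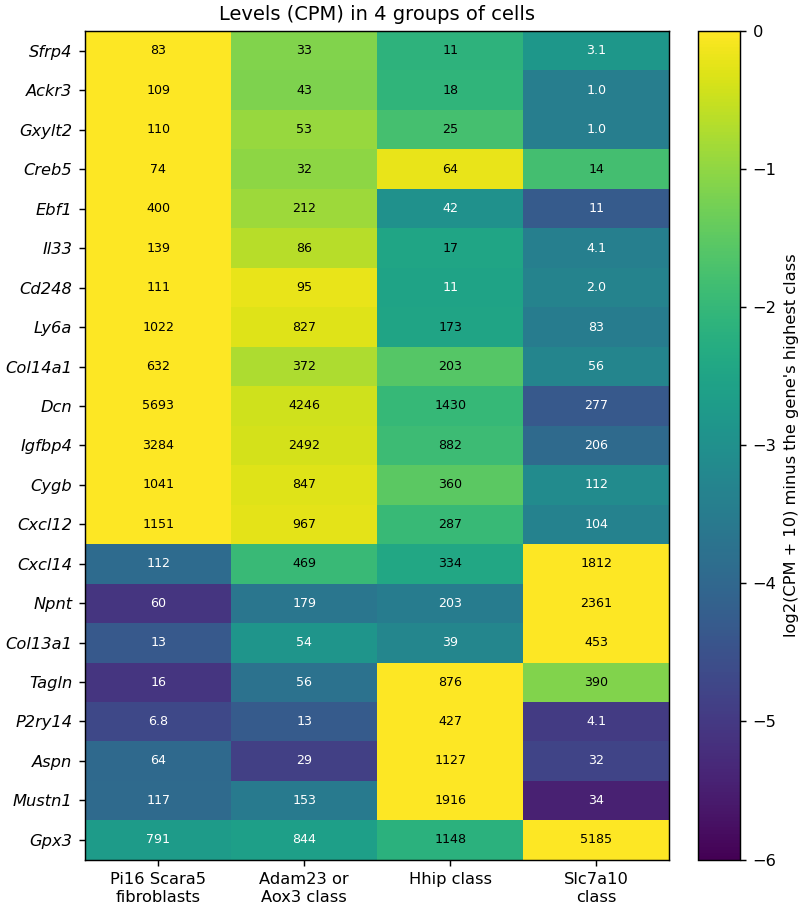
CPM of 21 genes (rows) in Pi16 Scara5 fibroblasts and 3 classes of mesenchymal cells (columns), with the CPM printed in each cell and colour giving log2(CPM + 10) relative to the highest class of that gene. The first 2 columns share high Ly6a, Dcn, Igfbp4 and Cxcl12, the Hhip class is high in Tagln, Aspn and Mustn1, and the Slc7a10 class in Npnt, Cxcl14, Col13a1 and Gpx3.

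The 15 leading higher genes were chosen for a high ratio to the other mesenchymal cells, which include the cells with 2 markers. That choice largely fixes their direction here, and no share over all compared genes was taken. All 15 read higher in cells with 7 or 8 of the markers than in cells with 2. Of them, 5 (Ly6a, Ebf1, Ackr3, Cd248 and Scara3) were higher at every step between. From cells with 2 markers, outside the rule, through 3, 4, 5 and 6 to those with 7 or 8, Ly6a read 367, 582, 700, 905, 1311 and 2058 CPM. Ebf1 read 85.5, 266, 286, 419, 524 and 630 CPM over the same steps, and Dcn 2363, 4246, 4964, 6410, 6825 and 6909. Ackr3 read 18.4, 52.1, 62.4, 92.1, 118 and 278 CPM and Cd248 25.1, 55.0, 59.5, 108, 140 and 248. Others had no steady order, such as Sfrp4 at 16.8, 0, 36.9, 181, 72.3 and 156 CPM and Ifi205 at 35.2, 75.3, 79.4, 88.9, 63.3 and 65.1. Npnt went the other way from 317 through 154, 62.4 and 25.4 to 4.52 and 17.4 CPM, the last 2 on 1 and 4 UMIs. Tagln dropped from 83.8 CPM outside the rule to 20.3 at its edge and stayed between 8.69 and 19.0 beyond it. Median depth was 3560, 2689, 3513, 3439.5, 3727 and 4496 UMIs per cell, so the number of markers found also moves with depth, and its part in these levels was not tested.

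**Figure D5:**
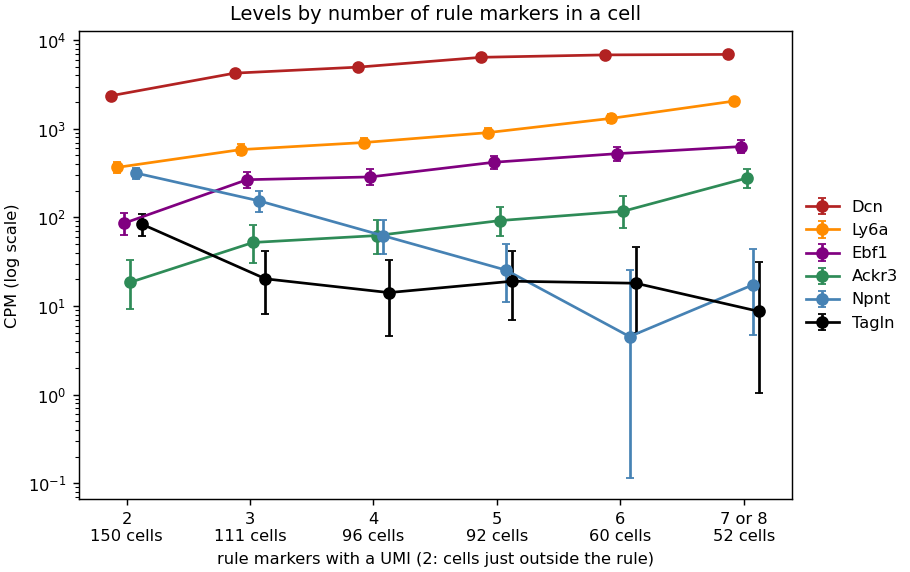
CPM on a log axis (y) of 6 genes that the rule did not use, by the number of rule markers with a UMI in a cell (x, with the number of cells), with exact 95% Poisson intervals. The levels of Ly6a, Ebf1, Dcn and Ackr3 increase from 2 to 7 or 8 markers, while Npnt is highest at 2.

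Among Pi16 Scara5 fibroblasts, 236 had a Pi16 UMI and 175 had none. Their median depths were 3439 and 3624 UMIs per cell, and both had a median of 4 markers besides Pi16. Of 3206 compared genes, 51 were 2-fold or more higher with Pi16 (1.59%) and 32 lower (0.998%), and the median log2 ratio was 0.02. With each cell thinned to 1000 UMIs these counts were 235 and 209. Higher were Sfrp4 at 131 against 20.5 CPM, Tmem100, a membrane protein of vascular and BMP signalling, at 169 against 26.8, Lims2 (a focal adhesion adaptor) at 60.2 against 12.6, Ackr3 at 164 against 36.3 and the annexin Anxa3 at 158 against 36.3. Within suffix 4 alone these 5 log2 ratios were 2.38, 2.40, 1.91, 2.02 and 1.79. Of the 19 adventitial genes 6 were higher and 0 lower (median 0.78), among them Ly6a at 1314 against 640 CPM and Cd248 at 157 against 50.5, while Dcn (6115 against 5140) and Col14a1 (699 against 544) differed less. Ccl7, Ccl2 and Smpd3 were also higher with Pi16, but 1 cell held 87.1%, 90.4% and 69.8% of their UMIs.

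Leading genes that were higher on the side without Pi16 rested on few cells. Jchain, Saa3, Cxcl13, Sftpc and Sftpb had 93.9% or more of their UMIs in 1 cell, and for Cd74 and Slpi the share was 49.4% and 60.0%. As an absent UMI does not show an absent transcript, the side without Pi16 can hold cells that express it.

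Pi16 Scara5 fibroblasts of suffix 1 and suffix 4 differed by less than 2-fold in most genes. Of 3481 compared genes, 219 were 2-fold or more higher in suffix 1 (6.29%) and 116 lower (3.33%), with a median log2 ratio of 0.10. By list, 3 of 12 growth factors and receptors and 2 of 9 complement genes were higher in suffix 1 and none lower, 2 of 18 matrix glycoproteins were higher and 2 lower, and none of 19 matrix proteases and inhibitors passed 2-fold. C7, the terminal complement component, read 336 CPM in suffix 1 and 18.7 in suffix 4, and it read 251 and 38.7 in the other mesenchymal cells of the same suffixes. The difference thus appears in both groups of cells. Smoc2 (340 against 95.0 CPM, others 138 against 46.9), Igf2 (81.8 against 20.4, others 70.7 against 18.9) and Dhrs3, a retinal reductase (12.9 against 137, others 52.5 against 130), also moved the same way in the other cells. So did 9330159F19Rik, Thsd7a, Tsku, Plac9a, Vps13c and Myo9a, higher in suffix 1 by between 3.96-fold and 17.8-fold on 13 to 25 UMIs there, with log2 ratios of 1.92, 2.48, 0.97, 1.78, 1.56 and 0.90 in the others. Gfra2 and Ccl6 were lower in suffix 1 with 2 UMIs each, against -0.83 and -1.37 in the others.

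For other genes the remaining mesenchymal cells moved by less than 2-fold or the other way. The matricellular gene Wisp2 read 280 CPM in suffix 1 and 78.1 in suffix 4 in Pi16 Scara5 fibroblasts, but 136 and 222 in the others. Figf (vascular endothelial growth factor D) read 564 and 262 CPM against 203 and 208 in the others, and Apod 202 and 67.9 against 33.4 and 23.8. Igfbp3 was lower in suffix 1, at 64.6 against 233 CPM, while the others read 1024 and 796. Smpd3 was lower in suffix 1 on 2 UMIs, and Jchain, Sftpc, Saa3 and Cxcl13 were lower by way of 1 cell of suffix 4 each, with Saa3 also lower in the others (1.91 against 8.63 CPM). The adventitial list had a median of 0.29, beside 0.31 in the other cells, with Gsn (gelsolin) past 2-fold, and the chemokines a median of -0.86, beside -0.24. Day, sort gate, sex, depth and library cannot be told apart in this comparison.

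Markers of other cell types were counted as summed levels in the same cells. Alveolar fibroblast markers read 2222 CPM in Pi16 Scara5 fibroblasts against 6120 in other mesenchymal cells, with a range over suffixes of 548 to 2751 against 3302 to 9423. In the Hhip, Slc7a10 and Adam23 or Aox3 classes they read 2131, 14919 and 3954 CPM. Ductal myofibroblast markers read 264 against 1508 CPM, and 4 of the 10 (Wif1, Lgr6, Scx and Actg2) were at 0, below the 2.05 CPM that 3 UMIs would give. In the same 3 classes the ductal markers read 4979, 124 and 279 CPM, so the gap lies in the Hhip class, which the rule excludes. Pericyte and mural markers read 584 against 443 with Higd1b and Trpc6 at 0. In the same 3 classes they read 591, 91.2 and 569 CPM. Of the 4 compared, Ndufa4l2 (84.7 against 35.4) and Abcc9 (232 against 114) were higher and none lower, at a median log2 ratio of 0.70. Mesothelial markers read 180 against 409 CPM, with 1 of 3 compared higher and 1 lower. Endothelial markers read 175 against 172 with Prox1, Lyve1 and Mmrn1 at 0, and Ramp2, the only one compared, was higher at 113 against 46.1. Leukocyte markers read 404 against 939 CPM with Cd3e at 0, but the rule sets Ptprc to 0 in Pi16 Scara5 fibroblasts and not in the others. In the Hhip, Slc7a10 and Adam23 or Aox3 classes, also without Ptprc, they read lower, at 302, 318 and 290 CPM. Epithelial markers read 429 against 190 CPM with Epcam and Krt8 at 0, and 94.9% of the Sftpc UMIs in Pi16 Scara5 fibroblasts lay in 1 cell. The part of such cells in the results above was not tested.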

How the data were processed

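The authors deposited a table of raw UMI counts per gene and barcode and a normalized table of linear signal, in which every barcode sums to 2631.5; scaling the deposited counts gave the same signal to within 4.77e-12, so only the counts were used, with a mean over cells on that scale as an alternative. Per the labels, libraries were made with a droplet 3′ kit, and reads were processed with Cell Ranger 1.3.0 and STAR 2.5.1 on mm10, per the submitters' processing notes. The authors' method of calling cells was not given in the sources used. The 10410 barcode columns were not tied to labelled samples, so all values describe 1 pooled sample, and the planned comparisons between groups were not made.

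Barcodes were kept from 500 genes upward, with no more than 10% of UMIs mitochondrial (318 were under the first limit and 105 over the second). UMIs were summed over cells and scaled to CPM. Ratios have exact conditional binomial 95% intervals, levels exact Poisson and shares exact Clopper-Pearson intervals. A gene was compared at 50 CPM in either group, and a side under 3 UMIs was set to 3 UMIs, so that its ratio is a bound. Doublets were left in, since Scrublet (scanpy 1.11.5) was used for an alternative only, run per suffix: it marked 75 of 9994 cells (0.750%). Thinning used seed 0. Scripts (Python 3.11.15, numpy 2.4.6, scipy 1.17.1, pandas 2.3.3) were tested on simulated data.

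Named genes were the 15 highest and 15 lowest ratios that also passed 2-fold within suffixes 1 and 4, up to 4 genes with the largest ratio in each of 23 lists, and 8 genes at each end for the Pi16 and suffix comparisons; other genes named beside them, such as those past 2-fold in a list, in the class comparisons or in the suffix lists, were chosen after their values were seen. A few genes that the rule picks are not reported here. Of 392 list symbols 391 were in the table. Members, lists and rules were chosen with earlier results of these data known. Gene positions are from GENCODE vM21 on GRCm38, the build of mm10. Alternatives were other thresholds for genes, markers, collagens and CPM, no exclusion genes, other reference cells, thinning, doublet removal, and leaving out suffix 1 or 4.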

Additional observations from a re-analysis of the deposited data

How the results depend on the processing

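The share of Pi16 Scara5 fibroblasts among mesenchymal cells (15.5%) was 11.3% at 4 or more markers, 21.7% at 10 or more collagen UMIs, 26.2% with no exclusion genes, 17.6% without suffix 4 and 19.3% in suffix 1 alone; in suffix 4, thinning gave 13.1%. The 94 higher and 171 lower genes became 61 and 107 at 10 or more collagen UMIs, 165 and 300 without suffix 4, 193 and 287 in suffix 1 alone, 166 and 368 at a minimum of 20 CPM, where 6704 genes were compared, and 58 and 91 at 100 CPM, where 1591 were. With the median of all compared genes set to 0 they were 101 and 157. A reference of cells with under 3 markers, chosen after seeing the data, gave 139 and 217. Between 12 and 18 of 23 list medians were over 0 in all settings run, against 16 reported. In suffix 1 alone 8 lists changed sign, chemokines and antioxidant enzymes among them. Of 1853 recomputed ratios of named genes, 1457 lay within the interval of the reported ratio, 391 outside it with the same sign or under 2-fold, and 5 turned: Ccl2 at -0.40 (1000 genes and 5% mitochondrial UMIs), -0.0070 (suffix 4 alone) and -0.081 (without its leading cell, chosen after seeing the data), and Spp1 at 0.43 (suffix 1 alone) and 0.58 (3 classes weighted equally). The Spp1 value of 0.43 is a bound, on 1 UMI set to 3. In Pi16 Scara5 fibroblasts thinned to 1000 UMIs, the Pi16 split gave 235 higher and 209 lower genes, on fewer UMIs by construction. No paired analysis was possible because the labels give each group 1 sample and no suffix is tied to a sample.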
